A study of Homo sapiens with 17 samples.

Results

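The course analysed here followed human endothelial cells made with vitamin C as blood cells arose among them, at 24, 36, 48 and 60 h after re-plating. Its 4 libraries were chosen by their titles, which give the vitamin C condition and the hour, and they are 4 of 17 libraries in the study. The cells came from the widely used human embryonic stem cell line H1 and were endothelial cells expressing GATA2, which the series design ties to a green fluorescent reporter of that gene. They were derived in culture with vitamin C and then re-plated, and the labels call each library a mixture of endothelial and blood cells, without proportions. A parallel course of 4 libraries at the same hours followed cells derived without vitamin C, and 2 further libraries held the adherent and the suspended cells of vitamin C cultures at 60 h. All libraries come from 1 cell line, the labels do not say whether vitamin C was present after re-plating, and they do not say whether the times are separate cultures. With 1 library per time, p-values measure how single libraries depart from a straight line over time and not how cultures vary.

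Blood cells of the embryo form from a specialised endothelium, the haemogenic endothelium, whose flat cells round up and detach from the vessel wall. In this endothelial-to-haematopoietic transition RUNX1 is the central switch, with GATA2 and TAL1 acting around it. Red cell and megakaryocyte genes are then driven by GATA1, KLF1 and NFE2, and myeloid genes by SPI1, while endothelial genes are shut down in the cells that leave. Vitamin C supports the iron-dependent enzymes that take methyl marks off histones and DNA.

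The libraries held 6214675, 8254379, 6547820 and 6832232 gene counts at 24, 36, 48 and 60 h. At these depths 1 read stood for 0.121 to 0.161 counts-per-million (CPM), and mitochondrial genes took 4.15%, 4.53%, 4.85% and 5.86% of the counts. The labelled mixture was visible in the markers. All 8 endothelial markers reached 5 CPM, and their summed level was 8303, 7633, 7342 and 6900 CPM over the 4 times. Of 8 blood markers 7 reached 5 CPM, with sums of 258, 317, 379 and 585 CPM. The missing one was PTPRC, the pan-leukocyte surface protein CD45, at 0 to 0.290 CPM. Mesenchymal markers summed to 406 to 524 CPM, epithelial and endodermal ones to 3.01 to 5.32 CPM, cardiac ones to 30.9 to 47.0 CPM and neural ones to 2.26 to 6.03 CPM. Of the 4 pluripotency markers LIN28A, an RNA-binding protein that represses let-7, stood at 204, 154, 174 and 142 CPM. The other 3 stayed under 1 CPM and 2 of them had no read. In bulk RNA, fewer cells of a type and less RNA per cell cannot be told apart.

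Many blood genes and a set of arterial and secreted genes rose along the 36 hours. Falling genes included 11 of 26 DNA replication and mitosis genes, 3 of 10 venous and lymphatic genes, and NOS2, ESM1 and THBD. A straight line over hours on the log scale was called for 1811 of 14612 genes tested (12.4%), with 1008 rising (6.9%) and 803 falling (5.5%). The slope is given as the log2 change from 24 to 60 h with its standard error (SE), and the adjusted p is that of edgeR's quasi-likelihood test with Benjamini-Hochberg adjustment at 0.05. The median slope of all genes was 0.0036. The calls rested on the first and the last library: without the 24 h library 336 genes were called, 302 of them among the 1811, and without the 60 h library 408, with 369 among the 1811. With the 0 h libraries of both conditions added, 215 genes were called, 135 of them shared, and the sign turned for 11 of the genes named here with a called slope (MYB, RHAG, CD44, THBS1, NOTCH3, TEK, ROBO4, APLN, THBD, FOS and PTGS1). Of the 76 genes named here with a called slope, 24 were also called without the 24 h library and without the 60 h library, among them HBG2, HBE1, PLEK, GATA1, NFE2, GATA2, ITGA2B, SPN, MMP9, IGF2, CLDN5, GJA5, NOS2, ESM1, THBD and CDKN1A. For 38 the call was lost without the 24 h library and likewise without the 60 h library, among them SPI1, IKZF1, MYB, RAC2, BTK, KDR, CD34, MCM2 and FOS. The highest adjusted p of a named gene in these smaller fits was 0.676 without 24 h and 0.836 without 60 h.

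To order the genes, onset was taken as the first time at which a gene stood at least 2-fold above its 24 h level, after 0.5 CPM was added to both, among 12508 genes that reached 5 CPM at some time. All ratios share the 24 h library. A rise began at 36 h for 197 genes (1.57%), at 48 h for 407 (3.25%) and at 60 h for 379 (3.03%). Falls to no more than the reciprocal of that fold began at 36 h for 165 genes (1.32%), at 48 h for 208 (1.66%) and at 60 h for 230 (1.84%). Of the rises that began at 36 h 147 still stood at that fold at both later times, and of those that began at 48 h 299 did at 60 h. Falls were less steady, with 58 of 165 and 101 of 208. GATA1 passed at 36 h with a ratio of 2.19 and SELP with 2.07, whereas WAS, with 1.94, and IGF2, with 1.87, passed only at 48 h.

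**Figure D1:**
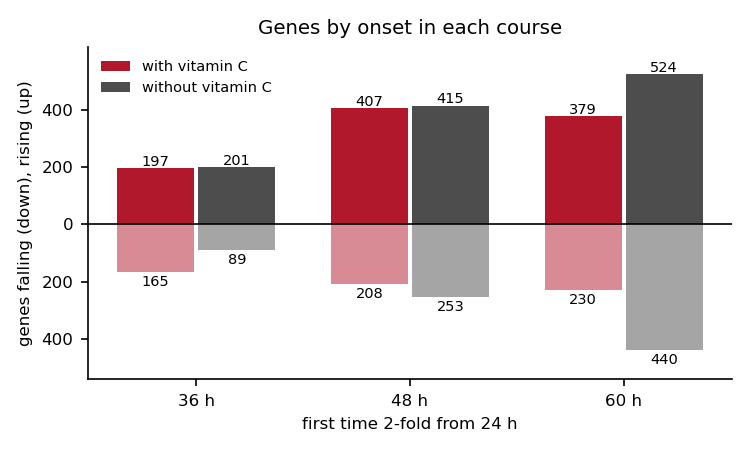
Number of genes whose level was first 2-fold from that at 24 h at 36, 48 or 60 h, for the course with vitamin C (red) and the one without (grey), with rises above and falls below the zero line. With vitamin C the number of new rises was 197, 407 and 379, and without it 201, 415 and 524.

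Globins and platelet-lineage genes were among the blood genes whose rises began at 36 h. With 2 CPM added, HBG2, PLEK, ITGA2B and SPN still began at 36 h, HBE1 and HBD moved to 48 h, and HBG1, HBZ and SELP to 60 h. HBG2, a fetal gamma globin, stood at 0, 2.59, 10.5 and 48.7 CPM at 24, 36, 48 and 60 h, so that the last level was at least 101-fold higher than the 3 reads taken as the limit at 24 h. HBE1, the embryonic epsilon globin, stood at 0.161, 1.97, 11.1 and 37.7 CPM, with a slope of 6.59 ± 0.57 (SE, adjusted p = 2.39e-05). From the single read at 24 h its fold at 60 h was 234, with a 95% counting interval of 41.6 to 9274. HBD, the delta globin, went from 0 and 0.985 to 5.27 and 33.6 CPM. HBG1 and HBZ, the zeta globin, first had a 2-fold step at 48 h and ended at 11.3 and 5.80 CPM. Of 10 listed globins 5 reached 5 CPM, and these climbed at each step after their onset. With 0 or 1 read at 24 h they could reach 5 CPM only later, so that minimum favoured a rise among them. Reads of the near-identical HBG1 and HBG2 cannot be assigned with certainty.

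PLEK (chr2:68365173-68397453 in GRCh38), encoding pleckstrin, a protein kinase C substrate of platelets, stood at 0.322, 3.20, 9.18 and 26.8 CPM (slope 5.28 ± 0.60, adjusted p = 0.000164), an 83.2-fold rise from 2 reads with an interval of 22.7 to 692. ITGA2B, the platelet integrin CD41 that also marks the first blood progenitors, stood at 18.7, 41.6, 70.5 and 141 CPM (slope 2.83 ± 0.25, adjusted p = 2.39e-05). In each of these the order of the levels followed the hours. SPN, the leukocyte sialoprotein CD43, behaved alike, at 5.96, 17.5, 30.3 and 49.0 CPM (slope 2.83 ± 0.34). SELP, the adhesion receptor P-selectin of platelets and endothelium, stood at 4.51, 9.85, 9.94 and 21.9 CPM (slope 2.03 ± 0.39, adjusted p = 0.00442), a step at 36 h, no further one at 48 h and another at 60 h.

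Some transcription factors rose by at least 2-fold, from low or high levels at 24 h, while others had no such step. GATA1 (chrX:48786554-48794311), the master factor of red cells and megakaryocytes, stood at 2.26, 5.54, 14.5 and 26.2 CPM (slope 3.52 ± 0.43, adjusted p = 0.000261). NFE2, also a factor of these lineages, stood at 5.80, 13.4, 26.8 and 42.0 CPM (slope 2.80 ± 0.31). Both began at 36 h by the 2-fold rule, with ratios of 2.19 and 2.21. SPI1, the myeloid factor PU.1, followed at 48 h, with 6.12, 11.2, 14.6 and 33.3 CPM (slope 2.34 ± 0.41, adjusted p = 0.0028). KLF1, the red cell factor that activates adult globin, stood at 2.58 and 2.34 CPM at 24 and 36 h and then at 10.4 and 17.1 CPM (slope 3.16 ± 0.53, adjusted p = 0.00217). IKZF1, the lymphoid and erythroid factor Ikaros, stood at 11.1, 14.3, 25.6 and 28.6 CPM (slope 1.48 ± 0.38, adjusted p = 0.0208). The order of these 5 depended on the CPM added: with 2 CPM in place of 0.5 the ratios of GATA1 and NFE2 at 36 h were 1.77 and 1.98, and all 5 then began at 48 h. GATA2 itself, high throughout, stood at 118, 164, 240 and 271 CPM (slope 1.25 ± 0.16, adjusted p = 0.00033). RUNX3 began at 48 h too (slope 2.88 ± 0.62; at 60 h with 2 CPM added), and CBFA2T3, the corepressor ETO2, at 60 h (slope 1.08 ± 0.26; no 2-fold step with 2 CPM added).

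RUNX1 had no such step: it stood at 155, 155, 155 and 180 CPM (slope 0.19 ± 0.14, adjusted p = 0.429). TAL1, the stem cell leukaemia factor, stood at 214, 198, 166 and 174 CPM (slope -0.34 ± 0.18, adjusted p = 0.235), and its partner LMO2 at 193, 191, 130 and 177 CPM (slope -0.26 ± 0.24). GFI1 and GFI1B, repressors that silence endothelial genes in emerging blood cells, had slopes of 0.14 ± 0.44 and 0.08 ± 0.26. None of these 5 was called, and the intervals around them do not show that their levels were constant. MYB, the factor of definitive progenitors, stood at 53.2, 60.8, 59.5 and 91.9 CPM and passed (slope 0.72 ± 0.19, adjusted p = 0.0224) without a 2-fold step. Of 25 haematopoietic transcription factors tested, 11 rose and none fell, against 6.9% of all genes rising, with a median slope of 0.72.

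**Figure D2:**
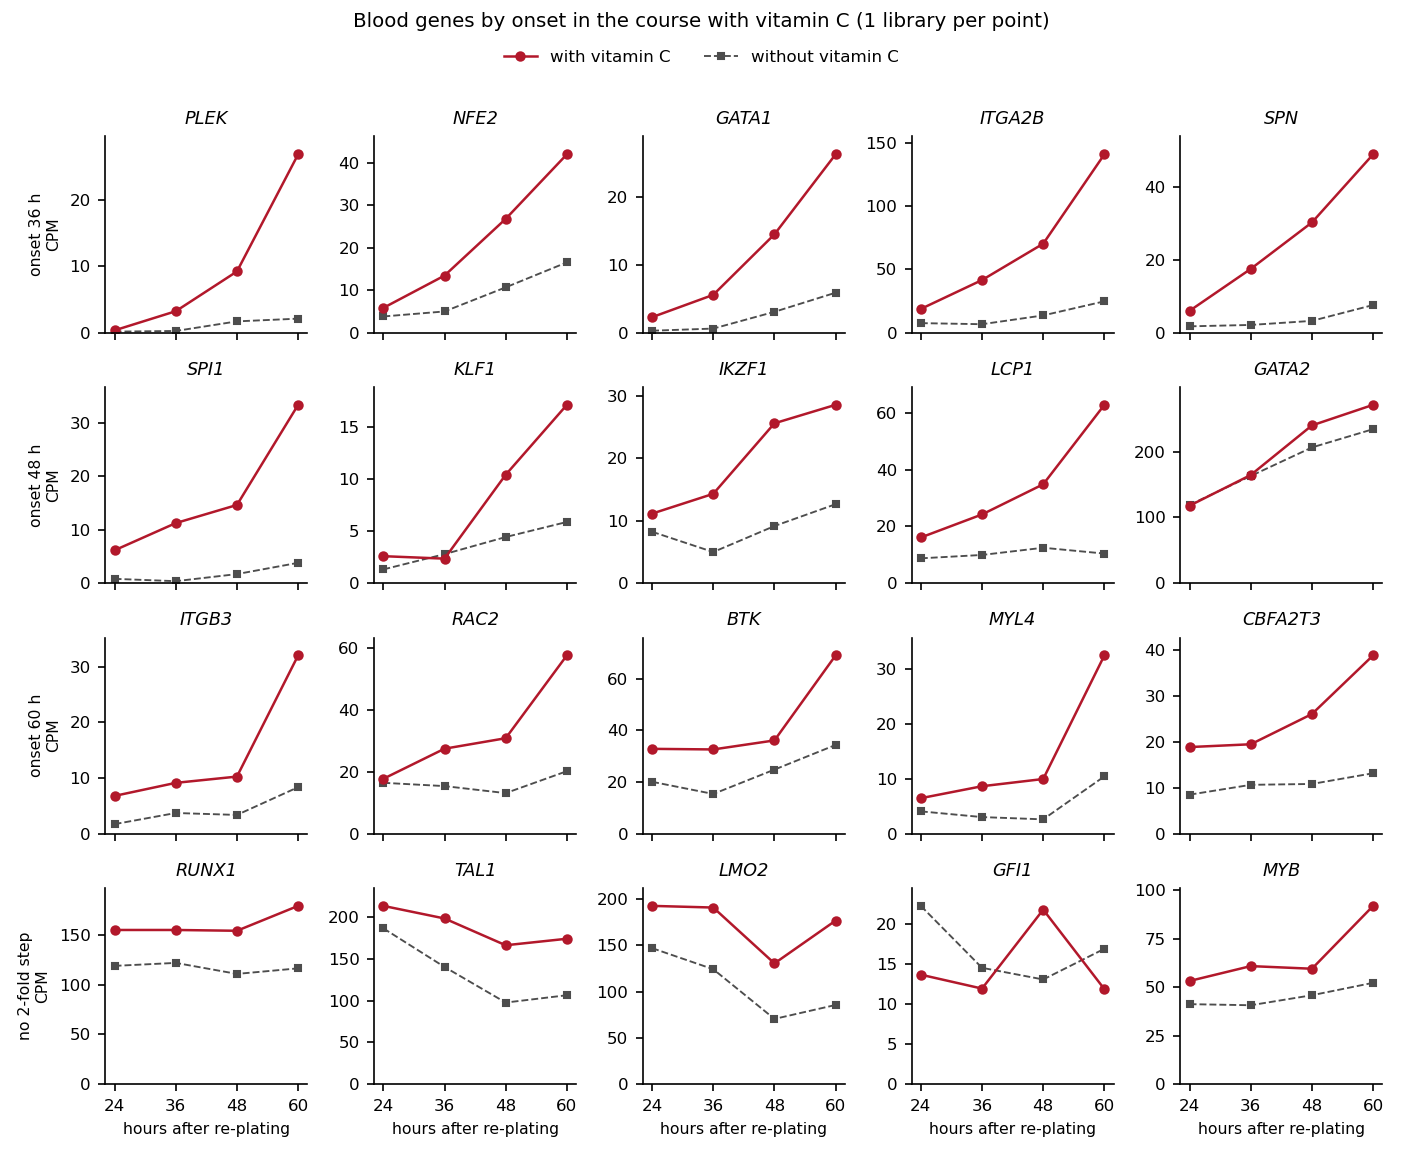
CPM (vertical axis, linear from 0) against hours after re-plating for 20 blood genes, with vitamin C (red circles) and without (grey squares), 1 library per point and rows by onset with vitamin C. PLEK, NFE2 and GATA1 leave the baseline at 36 h, KLF1 only at 48 h, and RUNX1 stays between 155 and 180 CPM.

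Of 3 genes of leukocyte motility and signalling, LCP1 began at 48 h and RAC2 and BTK at 60 h. LCP1, the actin bundler L-plastin, stood at 16.1, 24.3, 34.9 and 63.0 CPM (slope 1.95 ± 0.24, adjusted p = 0.000281). RAC2, a small GTPase of blood cells, stood at 17.7, 27.5, 30.9 and 57.7 CPM (slope 1.60 ± 0.27, adjusted p = 0.00222). BTK, a tyrosine kinase of B and myeloid cells, was level at 32.9, 32.6 and 36.1 CPM and stood at 69.1 CPM at 60 h (slope 1.06 ± 0.29, adjusted p = 0.0306). The late step of the last gene recurred elsewhere: ITGB3, the integrin beta chain that pairs with ITGA2B, stood at 6.77, 9.11, 10.2 and 32.0 CPM (slope 2.22 ± 0.43), and MYL4, an embryonic myosin light chain, at 6.44, 8.62, 9.94 and 32.5 CPM (slope 2.32 ± 0.54). The alpha and beta chains of this platelet integrin thus differed in onset, at 36 and 60 h. RHAG, a red cell ammonium channel, also began at 60 h, at 13.2, 19.6, 26.6 and 41.5 CPM (slope 1.62 ± 0.34).

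The lists of blood genes stand beside 6.9% rising and 5.5% falling among all genes. As lists, 10 of 22 leukocyte genes rose (45.45%) and 1 fell (CD44), with a median slope of 1.05. Of 15 megakaryocyte and platelet genes 8 rose and 1 fell, with a median of 1.36, the latter being THBS1, the matrix protein thrombospondin 1, which endothelial cells also make (266, 171, 157 and 140 CPM). Of 17 erythroid genes 6 rose (35.3%) and none fell, with a median of 0.73, and the megakaryocyte share rising was 53.3%. The 2 globins abundant enough for the test, HBG2 and HBE1, both rose, HBG2 with an adjusted p of 2.55e-05. With 0 and 1 read at 24 h with vitamin C, they passed the filter through later libraries, which favoured a rise. HDC, the histamine-forming enzyme of mast cells and basophils, reached 6.23 CPM at 60 h from 1 read at 24 h, and ALAS2, the first enzyme of haem synthesis in red cells, 8.84 CPM from none. With a filter of at least 5 CPM in any library, chosen after the values were seen, HBD, HBG1, HBZ, HDC and ALAS2 entered the test. Each was then called as rising. With 0 or 1 read at 24 h, they reached 5 CPM with vitamin C only at later times. That filter therefore favoured a rise, and these calls add no support.

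**Figure D3:**
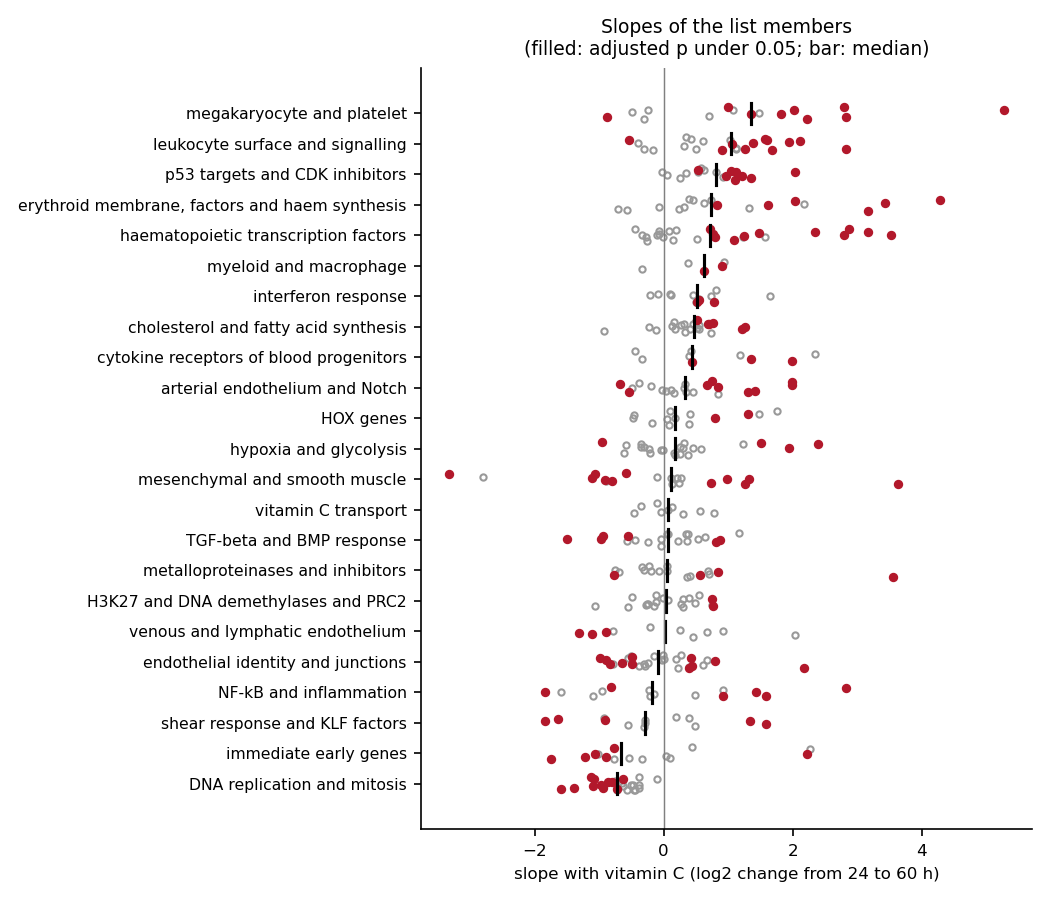
Slope with vitamin C (log2 change from 24 to 60 h) of each tested member of the gene lists with at least 5 tested members, with filled points for members called at an adjusted p of 0.05 and a bar at the list median. The megakaryocyte list has the highest median, 1.36, and the DNA replication list the lowest, -0.72.

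The libraries of separate cells at 60 h, which the onset did not use, place the rising genes on both sides of the culture. Of the 983 genes with a rise at any time (7.86%), 225 (22.9%) were at least 2-fold higher in the suspended than in the adherent cells, and 329 (33.5%) at least 2-fold higher in the adherent. Among all 12508 genes these shares were 9.86% and 15.1%, so both were larger among the risers. They were larger among falling genes too, at 16.25% and 26.7%, so this excess was not particular to rises. The suspended share was 23.4%, 21.6% and 24.0% for onset at 36, 48 and 60 h, and the adherent share was 41.6%, 35.1% and 27.4%. With 5 CPM added to both levels, the order turned for onset at 60 h, with 78 genes suspended and 66 adherent. There was 1 library for each fraction, so these ratios have no replicate check, and no label says whether the fractions came from the culture sequenced whole. The 225 risers of the suspended side had median levels of 3.38, 5.17, 9.33 and 13.3 CPM over the course. For the 329 of the adherent side the medians were 4.83, 8.13, 12.95 and 17.5 CPM. Both groups were chosen for a rise, so their climb is no separate result. GATA1 stood at 136 CPM in suspended and 3.45 CPM in adherent cells, PLEK at 142 and 4.43 CPM and ITGB3 at 197 and 4.43 CPM. RUNX1, whose slope in the whole culture was not called, stood at 502 against 111 CPM, and PTPRC at 3.16 CPM in the suspended cells.

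**Figure D4:**
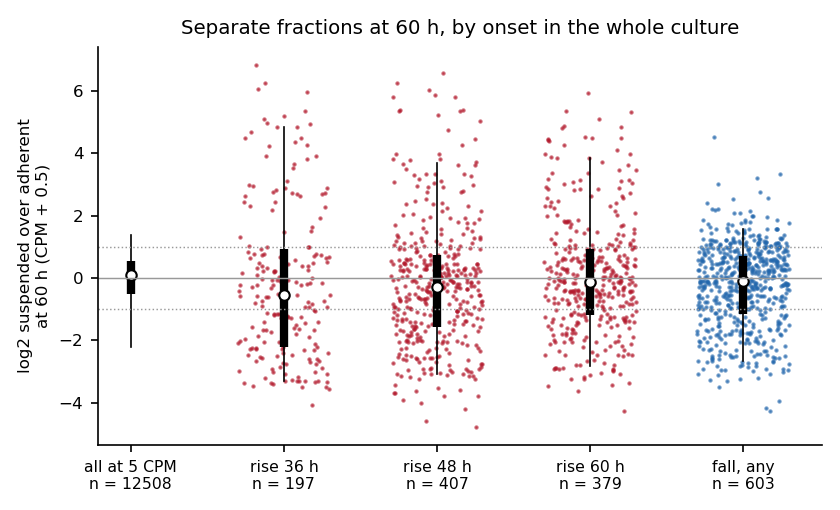
log2 ratio of suspended over adherent CPM at 60 h (0.5 CPM added, 1 library each) for all genes at 5 CPM and for genes grouped by onset in the whole culture, where each coloured point is a gene, the circle the median, the thick bar the middle 50% and the thin line the central 90%. Rising genes spread to both sides of the dotted 2-fold lines, with 225 above and 329 below.

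The promoters of rising genes are shown for KLF1, SELP and PLEK, higher in suspended cells (SELP just under 2-fold), and for VEGFC on the adherent side. They were searched on both strands for GATAA, a core bound by GATA factors, for TGTGGT, bound by RUNX factors, and for GAGGAA, bound by ETS factors such as PU.1. Each line holds the 250 bases before the RefSeq start site in GRCh38.p14, 5′ to 3′ on the gene's strand, with matches in capitals, which read TTATC where the match lies on the other strand. KLF1 lies at chr19:12887202-12887451 on the minus strand, SELP at chr1:169630125-169630374 on the minus strand, PLEK at chr2:68365032-68365281 on the plus strand and VEGFC at chr4:176792923-176793172 on the minus strand.
KLF1: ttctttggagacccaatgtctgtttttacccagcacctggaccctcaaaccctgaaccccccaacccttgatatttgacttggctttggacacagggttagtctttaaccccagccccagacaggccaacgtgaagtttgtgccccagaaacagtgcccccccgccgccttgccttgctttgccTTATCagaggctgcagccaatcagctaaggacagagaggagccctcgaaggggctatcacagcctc
SELP: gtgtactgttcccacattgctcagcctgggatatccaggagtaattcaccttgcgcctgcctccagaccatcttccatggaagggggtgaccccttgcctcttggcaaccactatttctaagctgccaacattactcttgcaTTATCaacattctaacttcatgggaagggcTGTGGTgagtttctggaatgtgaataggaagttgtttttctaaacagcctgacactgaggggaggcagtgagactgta
PLEK: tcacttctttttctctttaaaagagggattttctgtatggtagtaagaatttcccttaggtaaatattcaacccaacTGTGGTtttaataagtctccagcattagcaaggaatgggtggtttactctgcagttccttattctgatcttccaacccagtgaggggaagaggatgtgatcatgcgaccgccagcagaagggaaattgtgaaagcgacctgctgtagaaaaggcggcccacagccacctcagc
VEGFC: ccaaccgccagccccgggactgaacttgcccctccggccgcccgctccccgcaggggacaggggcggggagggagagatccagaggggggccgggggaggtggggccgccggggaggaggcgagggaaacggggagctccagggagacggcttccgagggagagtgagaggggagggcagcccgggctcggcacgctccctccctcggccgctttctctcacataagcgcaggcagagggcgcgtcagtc
KLF1 holds 1 GATAA match, SELP 1 GATAA and 1 TGTGGT match and PLEK 1 TGTGGT match, and VEGFC holds none of the 3 motifs. Of 146 risers on the suspended side with a listed promoter, 28 (19.2%) held GATAA, 13.7% TGTGGT and 29.5% GAGGAA. For 232 on the adherent side the shares were 12.1%, 4.74% and 18.5%, for 9354 genes at 5 CPM 12.1%, 7.17% and 22.7%, and for all 27305 promoters of this length 21.0%, 10.9% and 23.4%. A match describes the letters and not a bound site, and the suspended-side shares lay above those of the genes at 5 CPM but, for GATAA, below that of all promoters.

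Arterial, secreted and matrix-cutting genes were among the 329 risers of the adherent side, which also held genes of other kinds, and those shown here were picked after their values were seen or by size. MMP9, a gelatinase, stood at 54.9, 180, 335 and 726 CPM (slope 3.56 ± 0.26, adjusted p = 7.35e-06), and at 858 CPM in adherent against 146 in suspended cells. VEGFC, the lymphatic growth factor, stood at 0, 0.985, 4.22 and 13.6 CPM, at least 28.2-fold above the limit of 3 reads at 24 h. CXCR4, a chemokine receptor that anchors blood progenitors, stood at 58.3, 132, 192 and 247 CPM (slope 1.99 ± 0.28, adjusted p = 0.000666). TACR1, the substance P receptor, stood at 0.483, 2.96, 9.48 and 16.4 CPM. These 4 began at 36 h (VEGFC and TACR1 at 48 h with 2 CPM added) and were higher in adherent cells, TACR1 at 16.5 against 1.15 CPM.

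Later rises of this kind included IGF2, the fetal growth factor, at 144, 271, 461 and 883 CPM (slope 2.58 ± 0.15, adjusted p = 1.53e-06), the smallest p of the genes named here. The arterial gap junction gene GJA5 stood at 102, 168, 299 and 388 CPM (slope 1.99 ± 0.16, adjusted p = 1.64e-05), and GJA4 at 187, 220, 322 and 448 CPM (adjusted p = 9.86e-05). CLDN5, the tight junction claudin of endothelium, stood at 35.0, 65.3, 125 and 153 CPM (slope 2.18 ± 0.22, adjusted p = 6.4e-05). SLC7A8, an amino acid transporter, stood at 2.58, 2.96, 8.13 and 35.5 CPM (slope 4.51 ± 0.41). All 5 were higher in adherent than in suspended cells, CLDN5 at 213 against 23.9 CPM and GJA5 at 503 against 73.9 CPM. Of 21 arterial and Notch genes 7 rose (33.3%), EFNB2 (slope 0.76), UNC5B (0.84), NOTCH3 (1.42) and HES4 (0.67) among them. In that list 2 fell (9.5%), HES1 (-0.68) and CD44 (-0.54), and the median slope was 0.34. Among all genes 6.9% rose and 5.5% fell.

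Endothelial identity genes moved in both directions, 17.9% rising and 21.4% falling against 6.9% and 5.5% of all genes. Of 28 tested, 5 rose (PECAM1, TEK, TIE1, CLDN5 and CLEC14A, with slopes of 0.40 to 2.18) and 6 fell (KDR, FLT4, ROBO4, CD34, PODXL and SOX7, with slopes of -0.98 to -0.49), with a median slope of -0.09. CDH5, the VE-cadherin of endothelial junctions, was not called, at 1104, 1162, 1131 and 995 CPM (slope -0.15 ± 0.14, adjusted p = 0.556). KDR, the main VEGF receptor, fell from 5758 to 4844, 4448 and 4042 CPM (slope -0.50 ± 0.11, adjusted p = 0.0132), and CD34, a sialomucin of endothelium and early progenitors, from 1626 to 1444, 1059 and 948 CPM (slope -0.83 ± 0.14, adjusted p = 0.00236). ROBO4, an endothelial guidance receptor, fell from 256 to 213, 162 and 131 CPM (slope -0.98 ± 0.16). PECAM1, the adhesion molecule CD31, stood at 736, 879, 924 and 984 CPM and passed narrowly (slope 0.40 ± 0.12, adjusted p = 0.0495). Of 10 venous and lymphatic genes 3 fell, NRP2, FLT4 and APLN, and none rose. The median slope of that list was 0.02, so it did not fall as a whole. APLN, the apelin of sprouting tip cells, stood at 304, 214, 191 and 115 CPM (adjusted p = 0.00319).

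**Figure D5:**
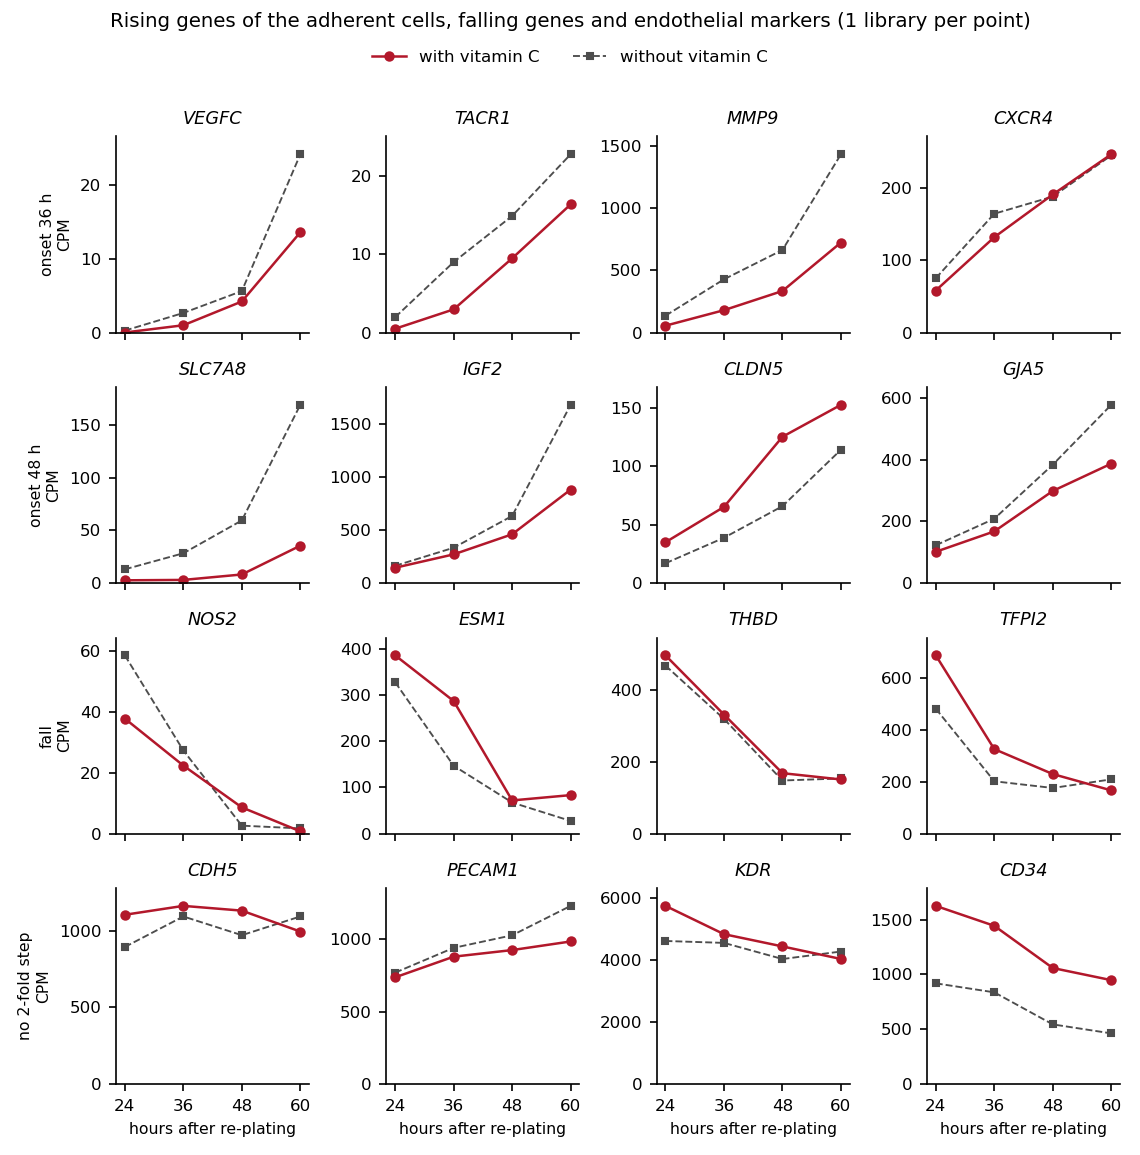
CPM (vertical axis, linear from 0) against hours after re-plating for 16 genes, with vitamin C (red circles) and without (grey squares), 1 library per point. MMP9 and IGF2 climb at every time, NOS2 and ESM1 drop by 48 h, and CDH5 stays between 995 and 1162 CPM with vitamin C.

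Falling genes included NOS2, ESM1, THBD, TFPI2, MICAL2 and EDN1, though other genes with steeper falls than most of those shown here were also called. Activated endothelium did not show 1 direction, since the adhesion receptors ICAM1 and SELP rose. NOS2 (chr17:27756766-27800499), the inducible nitric oxide synthase, stood at 37.7, 22.3, 8.58 and 0.725 CPM (slope -4.34 ± 0.65, adjusted p = 0.00101). ESM1, a proteoglycan secreted by tip cells, stood at 386, 287, 71.8 and 83.3 CPM (slope -2.55 ± 0.34, adjusted p = 0.000509), with its drop between 36 and 48 h. THBD, the anticoagulant thrombomodulin, stood at 496, 331, 168 and 150 CPM (slope -1.83 ± 0.24, adjusted p = 0.00046). TFPI2, a protease inhibitor of the matrix, had already reached its 2-fold fall at 36 h, at 686, 325, 229 and 166 CPM (slope -2.01 ± 0.32), as had MICAL2, which oxidises actin, at 269, 132, 75.3 and 61.2 CPM (slope -2.19 ± 0.20, adjusted p = 2.55e-05). EDN1, the vasoconstrictor endothelin 1, stood at 262, 141, 159 and 69.3 CPM (slope -1.63 ± 0.32). Adherent cells alone held low levels of some of them at 60 h: NOS2 stood at 1.23 CPM in adherent and 0.862 CPM in suspended cells, while ESM1 stood at 89.7 and 12.2 CPM. Of the 603 falling genes (4.82%), 98 (16.25%) were 2-fold higher in suspended and 161 (26.7%) in adherent cells. Among all genes at 5 CPM the shares were 9.86% and 15.1%.

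Mesenchymal and smooth muscle genes split, with 5 of 19 tested rising (26.3%) and 6 falling (31.6%), against 6.9% and 5.5% of all genes. CNN1, the contractile protein calponin, stood at 7.89, 3.57, 1.81 and 0.725 CPM (slope -3.33 ± 0.54, adjusted p = 0.00169) and TAGLN, transgelin, at 87.2, 64.8, 48.0 and 41.2 CPM (slope -1.11 ± 0.19), whereas ACTA2, smooth muscle actin, stood at 23.8, 34.7, 47.7 and 60.1 CPM (slope 1.33 ± 0.23, adjusted p = 0.00287). These 3 are commonly read as 1 contractile programme and went opposite ways. The immediate early genes split too, with 5 of 14 falling (35.7%) and 1 rising (7.1%, near the share of all genes). JUN stood at 148, 91.5, 68.5 and 64.6 CPM (slope -1.21 ± 0.22) and NR4A1 at 20.6, 17.2, 5.72 and 7.68 CPM, while FOS stood at 35.8, 79.8, 50.3 and 212 CPM (slope 2.23 ± 0.50, adjusted p = 0.0119). Genes of this kind are known to respond quickly to the handling of cells, and FOS stood at 451 CPM in the adherent and 37.5 CPM in the suspended library. The part of handling in the course was not tested.

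Part of the DNA replication and mitosis genes fell, and part of the p53 targets rose. Of 26 replication and mitosis genes 11 fell (42.3%) and none rose, with a median slope of -0.72 against 0.0036 for all genes. Among all genes 6.9% rose and 5.5% fell. Without vitamin C the median slope of this list was steeper, at -1.385. The slope difference between the courses was called for 0 members, and 8 had an unadjusted edgeR p under 0.05, against 5% of all genes. RRM2, a subunit of the enzyme that makes deoxynucleotides, stood at 125, 84.1, 61.3 and 48.0 CPM (slope -1.39 ± 0.19, adjusted p = 0.000566), and MCM2, of the replicative helicase, at 113, 105, 88.8 and 68.4 CPM (slope -0.72 ± 0.16, adjusted p = 0.0107). MKI67, the proliferation antigen, stood at 434, 393, 327 and 253 CPM and was not called (slope -0.78 ± 0.25, adjusted p = 0.0539). At 60 h RRM2 stood at 37.0 CPM in adherent and 86.7 CPM in suspended cells, and MCM2 at 52.1 and 193 CPM. Among 17 p53 targets and inhibitors of cyclin-dependent kinases 8 rose (47.1%) and none fell, with a median slope of 0.81. CDKN1A, the inhibitor p21, stood at 89.7, 107, 167 and 198 CPM (slope 1.22 ± 0.15, adjusted p = 0.000293), and ZMAT3, an RNA-binding p53 target, at 30.3, 34.2, 61.0 and 71.0 CPM (slope 1.36 ± 0.24). Genes of cholesterol and fatty acid synthesis rose for 6 of 22 (27.3%) and fell for none, with FASN, fatty acid synthase, at 914, 1022, 1772 and 1947 CPM (slope 1.22 ± 0.17).

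The enzymes that use vitamin C as a cofactor, and the complex that writes a mark that only some of them remove, were mostly not called. Of 20 genes for histone and DNA demethylases and Polycomb repressive complex members 2 rose (10%) and none fell, with a median slope of 0.03, against 6.9% rising and 5.5% falling among all genes, shares near this background. The 2 were KDM4B (51.2, 72.3, 87.6 and 87.7 CPM) and KDM3A (78.5, 84.5, 114 and 126 CPM), demethylases of histone H3 lysine 9. KDM6A, an H3 lysine 27 demethylase, stood at 34.0, 37.3, 37.3 and 42.6 CPM (slope 0.30 ± 0.19, adjusted p = 0.342), and KDM6B at 76.5, 65.6, 77.5 and 76.4 CPM (slope 0.07 ± 0.21). EZH2, the methyltransferase that sets the mark, stood at 86.3, 72.9, 68.8 and 60.0 CPM (slope -0.50 ± 0.20, adjusted p = 0.12). None of 9 vitamin C transport genes was called in either direction, where 12.4% of all genes were.

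The course without vitamin C serves to ask whether these changes depended on it. The difference between the 2 slopes was called for 0 of 14612 genes (0%) by edgeR, with 731 (5%) at an unadjusted p under 0.05, and for 8 genes by DESeq2, among them PTGS1, LRIG3 and TEK. The smallest p in the direction of a higher slope with vitamin C was that of PTGS1, the cyclooxygenase of platelets, at 22.2, 25.2, 37.2 and 60.3 CPM with vitamin C and at 50.5, 28.7, 24.7 and 30.5 CPM without (difference 2.23 ± 0.39, adjusted p = 0.303). LRIG3, a transmembrane regulator of growth factor receptors, had the smallest p in the other direction (difference -1.57 ± 0.27, adjusted p = 0.303). LCP1 (difference 1.62 ± 0.37, adjusted p = 0.374), RAC2 (1.37 ± 0.39, adjusted p = 0.641) and RHAG (1.65 ± 0.49, adjusted p = 0.641) had steeper fitted rises with vitamin C and were not called. Leaving out the filter on low counts gave 102 calls. With the hours as a block, so that the libraries of each hour form a pair, 31 differences were called (0.212%), 9 higher with vitamin C, PTGS1 (adjusted p = 0.013) and APLN among them, and 22 lower, LRIG3 and TEK among them. That fit was added after the values were seen and has 2 residual degrees of freedom.

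Levels, as against slopes, differed between the courses. Pairing the libraries by hour, in an edgeR fit added after the values were seen, gave 507 genes higher (3.47%) and 668 lower (4.57%) with vitamin C over the 4 hours. With 3 residual degrees of freedom and 1 course for each condition, this test measures how steady a difference was over the hours and not whether it would recur in other cultures. Without the 36 h pair 284 were higher and 364 lower. GATA1 reached 26.2 CPM at 60 h from 2.26 CPM with vitamin C and 5.86 CPM from 0.261 CPM without it, and its level was higher by 2.43 ± 0.27 on the log2 scale (adjusted p = 3.74e-05), while the difference in its slopes was not called (-0.98 ± 0.80, unadjusted p = 0.242). SPI1 stood at 6.12 and 0.782 CPM at 24 h and at 33.3 and 3.78 CPM at 60 h, with and without vitamin C (level difference 3.38 ± 0.28, adjusted p = 1.87e-06). ITGA2B (level difference 2.30 ± 0.16) and RUNX1 (0.46 ± 0.07, adjusted p = 0.000944) were higher with vitamin C too. MMP9 was lower with it, at 726 against 1437 CPM at 60 h (level difference -1.12 ± 0.07, adjusted p = 8.38e-08). Each of these 5 was higher or lower at every hour, and each was called whichever hour was left out. Without vitamin C 201, 415 and 524 genes began to rise at 36, 48 and 60 h, of 12567 that reached 5 CPM. Of the 983 risers with and the 1140 without vitamin C, 533 were in both lists, 54.2% and 46.8% of each, and of 603 and 782 falling genes 280 were, 46.4% and 35.8%. Falls that began at 36, 48 and 60 h numbered 165, 208 and 230 with vitamin C and 89, 253 and 440 without it, so that the course with vitamin C had more at 36 h and fewer at the later times. These are counts of single courses and were not tested.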

How the data were processed

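Total RNA, isolated with Trizol, went into Illumina TruSeq RNA libraries, per the labels' protocols. The authors deposited 1 table of raw read counts per course or fraction library, for 58302 Ensembl gene identifiers, of which 57532 had a symbol in the gene table used here. Per the submitters' processing notes the tools were DESeq 1.18.1, HTSeq 0.6.0, HISAT2 2.0.4 and SAMtools 1.3.1, with the human build hg38 (GRCh38). What each tool did, the annotation and the strand setting are not given in the sources used here, so counts of overlapping, antisense and near-identical genes are uncertain. The 4 libraries of sorted cells were not used here.

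Slopes were fitted with edgeR 4.0.16 (R 4.3.3; quasi-likelihood F test, TMM scaling, filterByExpr, two-sided) over 8 libraries, the courses with and without vitamin C at 24 to 60 h, with an intercept and a line over hours for each condition and 4 residual degrees of freedom. Benjamini-Hochberg adjustment was over all 14612 genes tested. CPM values are TMM scaled and those of the adherent and suspended cells are of the library total. Onset used 0.5 CPM added to each level, a 2-fold step and at least 5 CPM in 1 of the 4 libraries. Intervals of folds from 1 to 3 reads are exact binomial ones at 95% and, like the limit of 3 reads for a level of 0, cover counting error only, because copies made by PCR were not marked by molecular identifiers. The slope and level tests were tested on simulated data of this design. The level test, added after the values were seen, used the same libraries with the 4 hours as a block and 3 residual degrees of freedom.

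Genes were named as the largest unbroken rises and falls of each onset class, the largest called slopes, the smallest p of the slope difference, 25 set genes and the list members of smallest p. Other list members and genes with examples of each pattern were picked after their values were seen. The libraries, lists and tests were chosen with earlier results of these data known. Gene positions are those of GENCODE release 29, and promoters are RefSeq's, of GRCh38.p14. Alternatives were DESeq2 1.42.0 and its size factors, other filters, pseudocounts and folds, adding 0 h, and leaving out each library.

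Results of a few genes are not reported here.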

Additional observations from a re-analysis of the deposited data

How the results depend on the processing

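Slope calls depended on the end libraries. Leaving out each library in turn gave 336 to 1997 called slopes with vitamin C, 233 to 1076 of them rising and 103 to 921 falling, with the lowest counts without 24 h. Adding the 0 h libraries, which lengthens the line to 60 hours, gave 215 (121 rising, 94 falling). It turned the sign of MYB (-0.035), RHAG (-0.11), CD44 (0.48), THBS1 (0.91), NOTCH3 (-0.41), TEK (-0.52), ROBO4 (0.59), APLN (1.13), THBD (0.17), FOS (-0.38) and PTGS1 (-0.039). Of slopes not called it turned GFI1 (-0.22), GFI1B (-0.10), CDH5 (0.074), KDM6A (-0.024) and KDM6B (-0.045). With a library left out GFI1 ranged from -0.18 (without 48 h) to 1.07, GFI1B reached -0.83 (without 60 h), and CDH5 ranged from -0.34 to 0.069 (without 60 h). The cause was not tested. Of 76 called slopes of named genes 65 kept their sign under every alternative run.

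The difference in slope had 0 calls by edgeR, 8 by DESeq2 (1 higher, 7 lower with vitamin C), 102 without a filter (44 higher, 58 lower), 1 (higher) with at least 5 CPM in any library, and 0 to 3 with a library left out (0 to 1 higher, 0 to 2 lower). With the hours as a block it had 31 (9 higher, 22 lower). The level difference paired by hour, with 1175 calls (507 higher, 668 lower), had 648 to 995 when the pair of an hour was left out (284 to 417 higher, 364 to 578 lower).

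Rises at 36 h numbered 86 with 2 CPM added. Rises at 36, 48 and 60 h numbered 115, 265 and 253 at a minimum of 10 CPM, 629, 821 and 817 at 1 CPM, and 54, 139 and 193 for a 3-fold step. Falls at 36, 48 and 60 h numbered 70, 138 and 186 at 10 CPM, 538, 535 and 394 at 1 CPM, and 39, 57 and 50 for a 3-fold step. Falls at 36 h numbered 91 with 2 CPM added, and 58, with 101 at 48 h, when the fold had to be met at every later time. Leaving out a library gave 397 to 668 rises at 60 h, since genes of a missing 48 h library then count at 60 h. With only the 4 vitamin C libraries 17 replication genes and 5 venous and lymphatic ones were called, against 11 and 3. With 5 CPM added, 52 of the 36 h, 66 of the 60 h and 217 of all risers were on the adherent side. On the suspended side these counts were 43, 78 and 189. Of falling genes 54 were on the suspended and 90 on the adherent side.

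No paired analysis was possible because the course libraries carry no replicate numbers, apart from the pairing of the conditions by hour given above. For genes that start from a few reads the fold over 24 h is uncertain by counting alone, as the intervals of HBE1 and PLEK show.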

Other observations

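For lists outside the blood and endothelial programmes the shares called stand beside 6.9% rising and 5.5% falling among all genes. Of 23 hypoxia and glycolysis genes 3 rose (13%) and 1 fell (4.35%), with a median slope of 0.17. PFKFB4, a regulator of glycolysis, stood at 5.96, 7.02, 20.0 and 26.2 CPM at 24, 36, 48 and 60 h (slope 2.40 ± 0.36, adjusted p = 0.001), and VEGFA, the main endothelial growth factor, at 14.8, 10.8, 23.5 and 36.4 CPM (slope 1.51 ± 0.36, adjusted p = 0.0164). Of 14 NF-kB and inflammation genes 4 rose (28.6%) and 2 fell (14.3%). ICAM1, a leukocyte adhesion receptor, stood at 12.9, 8.99, 19.7 and 32.8 CPM (slope 1.58 ± 0.41), and TNFAIP3, a brake on this pathway, at 27.2, 18.4, 9.03 and 8.41 CPM (slope -1.84 ± 0.41, adjusted p = 0.0107). Of 20 TGF-beta and BMP response genes 2 rose (10%) and 4 fell (20%), with BMP2 at 10.3, 6.16, 4.37 and 3.77 CPM (slope -1.49 ± 0.39). Of 13 HOX genes 2 rose (15.4%) and none fell, and of 13 interferon response genes 3 rose (23.1%) and none fell.

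A few genes jumped between single libraries without order in time. VAMP7, of vesicle fusion, stood at 0.805, 0.493, 2.71 and 52.9 CPM with vitamin C, and at 0.246 and 0.862 CPM in the adherent and suspended cells at 60 h. FRG1 stood at 15.6 CPM at 24 h and at 0 to 0.301 CPM afterwards. FOSB, an immediate early gene, counted both as a fall at 48 h and as a rise at 60 h, at 15.6, 22.8, 3.46 and 85.7 CPM.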
